A study of Mus musculus with 6 samples.

Results

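The ATF4 amino acid stress response was followed in bone marrow-derived macrophages given the kinase inhibitor KN93. Its members were the genes of a list of 35 symbols that held the ATF4 and CHOP transcription factors, their feedback regulators and effectors, enzymes of amino acid synthesis, amino acid transporters and cytosolic tRNA synthetases. The list carries an older and a newer symbol for methionyl-tRNA synthetase, and the expression table uses the older one, Mars, so 34 symbols were found, in 35 of the 54446 entries of the table. One of these entries, a second model named Ddit3 that lies inside the main Ddit3 gene and has 105 exon bases, was listed at 0 in all 6 samples and is not counted further. The other 34 genes all passed the expression filter of at least 1 FPKM in at least 2 samples. FPKM are fragment counts scaled to the length of the gene and to the depth of the sample.

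ATF4 is a transcription factor whose protein is made in larger amounts when a kinase that senses a shortage of amino acids, ER stress, loss of heme or double-stranded RNA phosphorylates the translation factor eIF2. General protein synthesis then slows while the ATF4 message is translated more, a program called the integrated stress response. ATF4 pairs with C/EBP proteins on composite DNA elements of its target genes, which supply amino acids and charged tRNAs, and it induces CHOP, encoded by Ddit3, and feedback genes that restore translation. In macrophages this program accompanies nutrient limitation, ER stress and infection.

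The cells were grown from the marrow of 6-week-old C57BL/6 mice, and no genetic change is named for any group. The 3 groups were cells given PBS, a buffer, and cells given 5 µM or 10 µM KN93, a small molecule that blocks CaMKII and related kinases switched on by calcium and calmodulin, with 2 samples each. The labels give neither the duration of treatment nor an inactive control compound. All columns of the expression table carry the prefix DXM, which the labels do not explain, so a treatment or condition shared by the 3 groups cannot be told from these sources. Separate cultures or mice for the 2 samples of a group are not stated either, and the p-values therefore reflect the scatter among these libraries alone, which could be technical.

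The depth implied by the FPKM values was 24172513 to 28384943 fragments per sample, and each member had at least 151 recovered fragments in each sample. All 10 macrophage markers checked were above the expression filter, among them Csf1r, Cd68 and Lyz2. Their summed level, most of it Lyz2, was 19410 and 19942 FPKM with PBS, 14861 and 15353 after 5 µM, 8525 and 9395 after 10 µM. At 5 µM 6 of them fell and 2, Cd68 and Mertk, rose, where 15.4% of all genes tested fell and 15.1% rose. At 10 µM 7 fell, Mertk among them, and 1, Cd68, rose, where 22.0% of all genes fell and 28.5% rose. Of 9 stromal markers 8 were above the filter, and their summed level was 1925.0 and 1969 FPKM with PBS, 524 and 634 after 5 µM, 368 and 388 after 10 µM. For 9 neutrophil markers it was 115 FPKM in both PBS samples, 37.1 and 42.7 after 5 µM, 5.22 and 7.31 after 10 µM, with Ly6g, Mpo, Elane and Retnlg under 1 FPKM in every sample. Markers of T cells, B cells, erythroid cells and mast cells (3 each) stayed under 1 FPKM in every sample, with Cd3d at 0 throughout. These marker levels moved in the same samples as the members described below, and their part in the results was not tested. In such bulk samples, fewer cells of a type and less RNA per cell cannot be told apart.

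The promoters of the members are shown first because part of them carry the letters that ATF4 and C/EBP proteins bind. RefSeq promoter windows on build GRCm38.p6, from 250 bases before to 50 bases after the start, were found for 30 of the 34 members. Those of Cth, Nars, Slc7a5 and Wars are not shown. The composite element was searched as TGATGNAA on both strands, where N is any base. It occurred in the windows of 11 of the 30 members (36.7%), against 1219 of 27025 genes (4.51%) with a window in the same table. Counted over windows, it was in 11 of 36 (30.6%) of the members and in 3.97% of all 32851. The cAMP response element TGACGTCA, which shares no full match with the first, was in 1 member, Ppp1r15a, and in 2.03% of all genes. The 250 bases before the start of 5 members that rose at 10 µM and of 1 that fell, Pycr1, follow, 5′ to 3′ on the strand of the gene, with the match in capitals; in Chac1, Atf3, Nupr1 and Aars the element reads on the opposite strand.
Chac1 (chr2:119350992-119351241, plus strand): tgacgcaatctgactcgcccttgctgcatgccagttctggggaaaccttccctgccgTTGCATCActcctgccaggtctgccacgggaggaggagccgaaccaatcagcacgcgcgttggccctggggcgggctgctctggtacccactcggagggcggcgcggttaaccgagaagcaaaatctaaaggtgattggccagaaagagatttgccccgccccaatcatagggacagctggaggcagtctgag
Asns (chr6:7693210-7693459, minus strand): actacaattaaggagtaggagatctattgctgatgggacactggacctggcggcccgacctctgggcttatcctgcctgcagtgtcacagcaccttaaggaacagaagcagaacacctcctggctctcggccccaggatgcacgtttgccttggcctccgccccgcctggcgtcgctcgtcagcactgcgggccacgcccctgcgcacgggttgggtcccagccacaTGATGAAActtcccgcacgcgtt
Atf3 (chr1:191183334-191183583, minus strand): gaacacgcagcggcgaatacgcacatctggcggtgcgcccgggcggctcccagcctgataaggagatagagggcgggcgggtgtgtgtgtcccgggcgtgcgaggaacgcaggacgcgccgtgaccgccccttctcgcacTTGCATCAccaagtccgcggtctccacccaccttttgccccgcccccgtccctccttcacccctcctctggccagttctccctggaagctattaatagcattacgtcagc
Nupr1 (chr7:126625471-126625720, minus strand): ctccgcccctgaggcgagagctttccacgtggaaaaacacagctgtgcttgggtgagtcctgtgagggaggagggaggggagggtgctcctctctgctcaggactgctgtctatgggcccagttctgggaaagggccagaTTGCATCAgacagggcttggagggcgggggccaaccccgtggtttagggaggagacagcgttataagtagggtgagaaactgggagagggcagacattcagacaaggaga
Aars (chr8:111033592-111033841, plus strand): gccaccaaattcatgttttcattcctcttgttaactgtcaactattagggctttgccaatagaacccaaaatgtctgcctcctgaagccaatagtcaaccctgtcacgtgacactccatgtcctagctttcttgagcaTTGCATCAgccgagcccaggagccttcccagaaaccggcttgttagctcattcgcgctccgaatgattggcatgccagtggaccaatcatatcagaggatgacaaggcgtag
Pycr1 (chr11:120643749-120643998, minus strand): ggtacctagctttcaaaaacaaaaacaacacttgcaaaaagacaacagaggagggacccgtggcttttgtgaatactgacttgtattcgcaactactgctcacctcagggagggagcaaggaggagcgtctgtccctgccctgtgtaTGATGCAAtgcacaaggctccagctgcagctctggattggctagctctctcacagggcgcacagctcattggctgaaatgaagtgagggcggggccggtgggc
The match began 193 bases before the start in Chac1, 112 in Aars, 110 in Atf3 and in Nupr1, 103 in Pycr1 and 23 in Asns. The other members with a match were Gars and Vldlr, before the start, Slc1a4, across it, and Trib3 and Iars, after it, where Aars had a second one. Of the 11 with a match 9 rose at 10 µM and 1 fell, with a median log2 change of 0.92. Of the 19 without one 14 rose, among them Atf4, Ddit3 and Atf5, with a median of 0.70. Of all 12722 genes tested 28.5% rose and 22.0% fell at 10 µM, with a median of 0.05. Whether members with and without a match differed was not tested. Part of the members are on the list because they are known ATF4 targets, a match is a run of letters in this window only, and binding was not measured.

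Every transcription factor of the response was higher at 10 µM KN93. All 6 rose at 10 µM and 5 of the 6 rose at 5 µM, where 28.5% and 15.1% of the 12722 genes tested were called higher. Calls were made at an adjusted p below 0.05. Changes are differences of log2(FPKM + 1) with limma's standard error, a scale that compresses the fold of weakly expressed genes.

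Atf4 itself (GRCm38, chromosome 15, 80255184 to 80257541) was 50.98 and 50.7 FPKM with PBS, 81.5 and 78.8 after 5 µM and 159.7 and 167 after 10 µM. The groups did not overlap, and the replicates of each lay close together. It rose, with log2 changes of 0.65 ± 0.05 at 5 µM and 1.67 ± 0.05 at 10 µM (limma adjusted p = 0.000756 and 1.81e-05). Ddit3, which encodes CHOP, a partner of ATF4 that drives genes of translation recovery and cell death (chromosome 10, 127290774 to 127296288), was 18.1 and 16.7 FPKM with PBS, 55.6 and 54.2 after 5 µM and 129 and 128 after 10 µM. It stood at 3.16 times its PBS mean at 5 µM and at 7.41 times at 10 µM, the largest change of any member. Its log2 changes of 1.61 ± 0.05 at 5 µM and 2.82 ± 0.05 at 10 µM (limma adjusted p = 0.000148 and 1.25e-05) gave it rank 18 among the 12722 genes ordered from the largest rise at 10 µM. Ddit3 overlaps the end of Mars on the opposite strand by 68 bases, and no use of strand is given for the counting.

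Atf5, an ATF4-related factor that is also controlled at translation, was 27.5 and 28.97 FPKM with PBS, 41.7 and 43.6 after 5 µM and 87.7 and 83.3 after 10 µM. It rose at both doses, with log2 changes of 0.58 ± 0.05 at 5 µM and 1.56 ± 0.05 at 10 µM (limma adjusted p = 0.0014 and 2.84e-05). The gene spans of Atf5 and Nup62 overlap by 571 bases on opposite strands. Nup62, a nuclear pore gene, was 20.7 and 20.1 FPKM with PBS, 28.1 and 30.6 after 5 µM and 37.99 and 38.8 after 10 µM, and how fragments of the overlap were assigned is not known. Atf3, a stress-induced repressor of inflammatory genes in macrophages, was already high with PBS and was 47.4 and 55.6 FPKM with PBS, 78.4 and 82.5 after 5 µM and 102 and 111 after 10 µM. Each dose lay above PBS without overlap, with log2 changes of 0.64 ± 0.09 at 5 µM and 1.03 ± 0.09 at 10 µM (limma adjusted p = 0.00523 and 0.00042).

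Nupr1, a small chromatin-associated protein induced by stress, was 9.80 and 9.76 FPKM with PBS, 13.1 and 13.5 after 5 µM and 19.4 and 21.1 after 10 µM. It rose, with log2 changes of 0.41 ± 0.06 at 5 µM and 0.98 ± 0.06 at 10 µM (limma adjusted p = 0.00475 and 0.000107). Cebpg, which encodes the C/EBP protein that pairs with ATF4 on composite elements, had the smallest change of the factors and was 9.51 and 10.4 FPKM with PBS, 10.9 and 11.2 after 5 µM and 14.2 and 14.2 after 10 µM. Its 10 µM samples lay above all others, and the change there of 0.47 ± 0.06 was called (limma adjusted p = 0.00129). At 5 µM the change of 0.14 ± 0.06 was not called (limma adjusted p = 0.11).

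**Figure D1:**
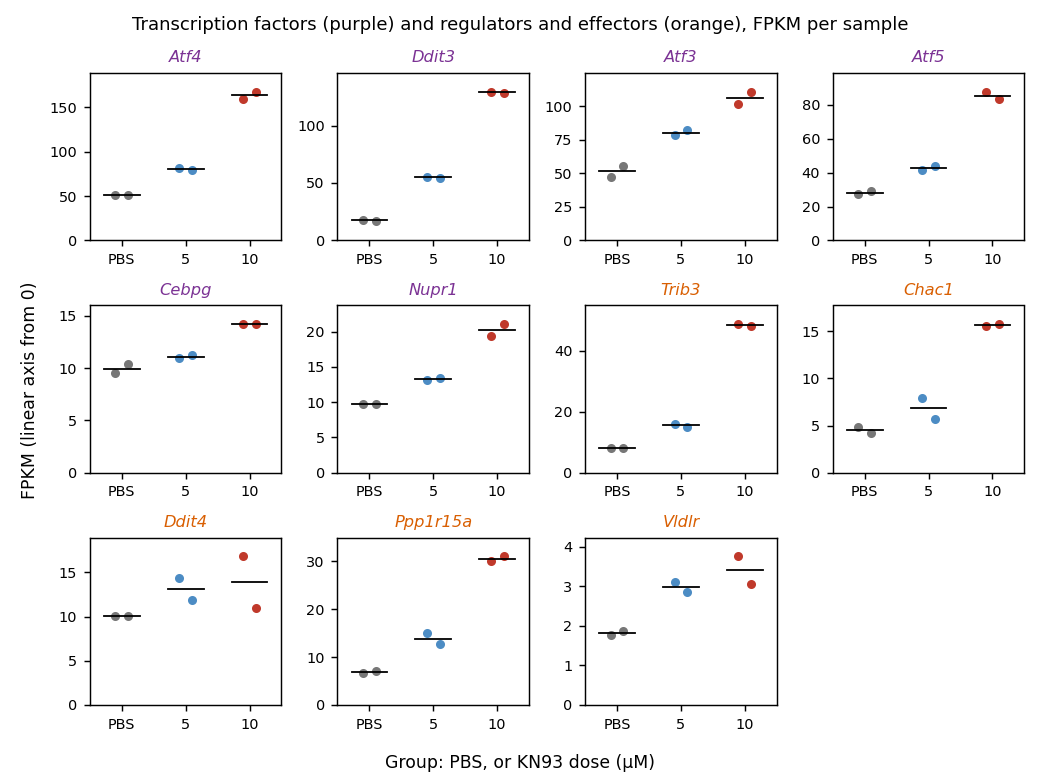
FPKM (y axes, linear and from 0) of the 6 transcription factors and the 5 regulators and effectors in each sample, by group (x axes: PBS, 5 and 10 µM KN93). Points are samples and horizontal lines the means of 2. Ddit3 goes from 16.7 to 18.1 with PBS to 128 to 129 at 10 µM, while the 10 µM samples of Ddit4 lie apart at 16.8 and 10.9.

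Of the 5 regulators and effectors, 4 rose at each dose, against 15.1% of all genes at 5 µM and 28.5% at 10 µM. Trib3, which encodes a pseudokinase that restrains ATF4 and AKT (chromosome 2, 152337422 to 152344032), was 8.03 and 8.04 FPKM with PBS, 16.1 and 14.9 after 5 µM and 48.8 and 48.1 after 10 µM. Its 10 µM samples were far above the others, at 6.03 times the PBS mean, against 1.93 times at 5 µM. The log2 changes of 0.87 ± 0.05 at 5 µM and 2.45 ± 0.05 at 10 µM (limma adjusted p = 0.00052 and 1.25e-05) were the second largest among the members at 10 µM. Ppp1r15a encodes GADD34, the subunit that directs a phosphatase to eIF2 and so restarts translation. It was 6.64 and 7.10 FPKM with PBS, 14.95 and 12.8 after 5 µM and 30.03 and 31.03 after 10 µM. Its span shares 717 bases with Tulp2, which stayed under 1 FPKM. The groups stood in the order of dose without overlap, with log2 changes of 0.91 ± 0.08 at 5 µM and 2.002 ± 0.08 at 10 µM (limma adjusted p = 0.0012 and 4.19e-05).

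Chac1 encodes an enzyme that breaks down glutathione and is a target of ATF4. Its level was 4.88 and 4.25 FPKM with PBS, 7.95 and 5.71 after 5 µM and 15.5 and 15.8 after 10 µM. The 10 µM samples were alike and the 5 µM samples were not, and log2 changes of 0.48 ± 0.14 at 5 µM and 1.58 ± 0.14 at 10 µM (limma adjusted p = 0.0495 and 0.000459) were found. The 5 µM call was lost under 9 of 15 alternatives, among them without 5 µM replicate 1, when the change was 0.27 (adjusted p = 0.113, with 0.0153 to 0.187 across all alternatives). It was also lost without either PBS replicate and without either 10 µM replicate (adjusted p = 0.0991, 0.187, 0.0827 and 0.0826). Without 5 µM replicate 2 the change was 0.69. The call at 10 µM held under all 15.

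Vldlr, a receptor for triglyceride-rich lipoproteins that the PERK branch of the stress response can raise, was low, at 1.76 and 1.86 FPKM with PBS, 3.10 and 2.86 after 5 µM and 3.76 and 3.05 after 10 µM. Both doses lay above PBS and overlapped each other, with log2 changes of 0.50 ± 0.10 at 5 µM and 0.64 ± 0.10 at 10 µM (limma adjusted p = 0.0138 and 0.00301). At 5 µM the call was lost without any 1 of the PBS or 5 µM samples (adjusted p = 0.0725, 0.0548, 0.073 and 0.051, with 0.00264 to 0.073 across all alternatives). Ddit4, which encodes REDD1, an inhibitor of mTORC1 also raised by hypoxia and glucocorticoids, did not pass the test at either dose. It was 10.02 and 10.1 FPKM with PBS, 14.3 and 11.9 after 5 µM and 16.8 and 10.9 after 10 µM, and on the log2(FPKM + 1) scale the 10 µM replicates differed by more than those of any other member. Its changes were 0.35 ± 0.19 and 0.40 ± 0.19 (limma adjusted p = 0.223 and 0.133). Without 10 µM replicate 2 the change at 10 µM was 0.69 and was called (adjusted p = 0.0115), while without replicate 1 it was 0.11 (adjusted p = 0.462, with 0.0115 to 0.462 across all alternatives).

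Of the 9 enzymes of amino acid synthesis, 4 rose, 1 fell and 4 did not pass at 10 µM, where 28.5% of all genes rose and 22.0% fell. At 5 µM 2 rose, 2 fell and 5 did not pass, where 15.1% of all genes rose and 15.4% fell.

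The 4 that rose were Mthfd2, Asns, Cth and Shmt2. Mthfd2, a mitochondrial enzyme of the folate cycle that uses the one-carbon unit released from serine (chromosome 6, 83305691 to 83325908), was 14.3 and 13.2 FPKM with PBS, 20.7 and 20.9 after 5 µM and 40.03 and 40.6 after 10 µM. Each dose stood apart from the one below, with log2 changes of 0.57 ± 0.05 at 5 µM and 1.49 ± 0.05 at 10 µM (limma adjusted p = 0.0015 and 3.06e-05). Asns, asparagine synthetase, the textbook target of the amino acid response, was 18.003 and 17.6 FPKM with PBS, 21.4 and 20.5 after 5 µM and 35.2 and 34.1 after 10 µM. At 10 µM it was 1.94 times its PBS mean but at 5 µM only 1.18 times, with log2 changes of 0.22 ± 0.05 at 5 µM and 0.92 ± 0.05 at 10 µM (limma adjusted p = 0.0197 and 7.83e-05). The 5 µM call was lost without any 1 of the PBS or 5 µM samples (adjusted p = 0.0787, 0.0976, 0.106 and 0.0586, with 0.015 to 0.106 across all alternatives).

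Cth, the enzyme that makes cysteine from cystathionine, was 2.01 and 2.17 FPKM with PBS, 3.21 and 2.26 after 5 µM and 3.45 and 4.04 after 10 µM. The 5 µM replicates lay far apart, and only 10 µM was called, with log2 changes of 0.26 ± 0.14 at 5 µM and 0.62 ± 0.14 at 10 µM (limma adjusted p = 0.204 and 0.0129). That call was lost without PBS replicate 1 or 10 µM replicate 2 (adjusted p = 0.0626 and 0.068, with 0.00557 to 0.068 across all alternatives). Shmt2, the mitochondrial enzyme that splits serine into glycine and a one-carbon unit, was 19.5 and 21.1 FPKM with PBS, 23.2 and 20.8 after 5 µM and 28.4 and 26.4 after 10 µM. Its 5 µM samples overlapped PBS and its 10 µM samples did not, with log2 changes of 0.11 ± 0.07 at 5 µM and 0.41 ± 0.07 at 10 µM (limma adjusted p = 0.314 and 0.00579).

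None of the 3 enzymes that make serine from a glycolytic intermediate, Phgdh, Psat1 and Psph, was called higher than PBS at either dose. Phgdh, which encodes the first enzyme of the pathway, was 17.8 and 17.1 FPKM with PBS, 16.4 and 12.6 after 5 µM and 20.5 and 20.97 after 10 µM. It was below PBS at 5 µM and above it at 10 µM, and neither difference passed, with log2 changes of -0.27 ± 0.11 at 5 µM and 0.23 ± 0.11 at 10 µM (limma adjusted p = 0.131 and 0.138). The difference between the doses did, at 0.50 ± 0.11 (limma adjusted p = 0.0324), and without 5 µM replicate 2 it was 0.32 (adjusted p = 0.0555, with 0.00813 to 0.116 across all alternatives). It was lost as well without either PBS or either 10 µM replicate (adjusted p = 0.0585, 0.0585, 0.101 and 0.116). Without 5 µM replicate 1 the fall at 5 µM was called (-0.44, adjusted p = 0.0182, with 0.0182 to 0.376 across all alternatives). Without either 5 µM replicate the rise at 10 µM was called (adjusted p = 0.0214 and 0.0212), as it was in a fit of only the PBS and 10 µM samples (adjusted p = 0.0211, with 0.0211 to 0.331 across all alternatives).

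Psat1, the aminotransferase of the second step, was 15.8 and 14.9 FPKM with PBS, 12.7 and 9.91 after 5 µM and 14.2 and 12.5 after 10 µM. Both doses lay below PBS, and only the fall at 5 µM was called, with log2 changes of -0.42 ± 0.12 at 5 µM and -0.19 ± 0.12 at 10 µM (limma adjusted p = 0.0484 and 0.236). That call was lost under 8 of 15 alternatives, and without 5 µM replicate 2 the change was -0.25 (adjusted p = 0.146, with 0.0116 to 0.18 across all alternatives). Removing either PBS replicate (adjusted p = 0.18 and 0.119) or either 10 µM replicate (adjusted p = 0.0629 and 0.0628) ended it too. Psph, the phosphatase of the last step, was 3.96 and 4.59 FPKM with PBS, 4.02 and 4.14 after 5 µM and 4.85 and 4.66 after 10 µM, with changes of -0.05 ± 0.07 and 0.13 ± 0.07 that did not pass (limma adjusted p = 0.651 and 0.199). The gene span of Psph shares 452 bases with Cct6a, a chaperonin gene that lay between 33.7 and 38.3 FPKM.

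Neither of the 2 genes of proline synthesis was called higher. Pycr1, the reductase of its last step, whose promoter holds the composite element shown above, was 2.90 and 2.71 FPKM with PBS, 1.99 and 1.74 after 5 µM and 1.93 and 2.18 after 10 µM. It fell, with log2 changes of -0.41 ± 0.08 at 5 µM and -0.31 ± 0.08 at 10 µM (limma adjusted p = 0.0171 and 0.0247), and no treated sample reached either PBS sample. With voom on recovered fragments the fall at 5 µM was -0.63. The calls were lost with no expression filter (adjusted p = 0.057 at 5 µM and 0.0714 at 10 µM). They were lost without PBS replicate 1 (adjusted p = 0.0963 and 0.121) and without PBS replicate 2 (adjusted p = 0.0611 and 0.0687). The same held at 5 µM without its replicate 2 (adjusted p = 0.0858, with 0.00518 to 0.0963 across all alternatives) and at 10 µM without its replicate 1 (adjusted p = 0.095, with 0.0113 to 0.121 across all alternatives). Aldh18a1, which encodes the enzyme that starts proline synthesis from glutamate, was 10.997 and 11.1 FPKM with PBS, 11.1 and 9.41 after 5 µM and 12.98 and 11.8 after 10 µM. Its changes of -0.10 ± 0.09 and 0.15 ± 0.09 did not pass (limma adjusted p = 0.419 and 0.197). The span of Aldh18a1 contains a processed pseudogene of 522 bases, Gm15801, listed at 3.85 to 27.9 FPKM.

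Among the amino acid transporters, 5 of 6 rose at 10 µM and 2 at 5 µM, where 28.5% and 15.1% of all genes were called higher. Slc3a2, the heavy chain (CD98) that carries several light chains to the cell surface, was the most abundant of them per length and was 96.95 and 101 FPKM with PBS, 149 and 143 after 5 µM and 240.4 and 249 after 10 µM. The groups stood apart in the order of dose, with log2 changes of 0.56 ± 0.05 at 5 µM and 1.30 ± 0.05 at 10 µM (limma adjusted p = 0.00135 and 3.82e-05). Its light chain Slc7a5, which takes up leucine and other large neutral amino acids as LAT1, was 20.5 and 19.4 FPKM with PBS, 17.98 and 14.9 after 5 µM and 21.8 and 18.2 after 10 µM. Its 10 µM samples lay on either side of PBS, and its changes were -0.27 ± 0.11 and -0.0026 ± 0.11 (limma adjusted p = 0.129 and 0.987). The lower level of Slc7a5 at 5 µM was called with voom on recovered fragments (adjusted p = 0.0492, with 0.0408 to 0.442 across all alternatives). The difference between the changes of the 2 chains was not tested.

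Slc6a9, which encodes the glycine transporter GlyT1, was low but rose most of the transporters on the log2 scale. It was 2.67 and 2.60 FPKM with PBS, 5.87 and 5.21 after 5 µM and 8.49 and 8.004 after 10 µM, the groups were in the order of dose, and log2 changes of 0.84 ± 0.07 at 5 µM and 1.35 ± 0.07 at 10 µM (limma adjusted p = 0.00101 and 7.85e-05) were found. The span of Slc6a9 also contains part of B4galt2 on the other strand, a gene that stayed between 0.749 and 2.19 FPKM. Slc7a1, the carrier of arginine and lysine (CAT1), was 4.27 and 4.17 FPKM with PBS, 4.32 and 4.53 after 5 µM and 7.98 and 7.02 after 10 µM. Its 5 µM samples were close to PBS and its 10 µM samples were higher, with log2 changes of 0.06 ± 0.07 at 5 µM and 0.70 ± 0.07 at 10 µM (limma adjusted p = 0.601 and 0.000753). Slc38a2, the sodium-coupled carrier SNAT2 of small neutral amino acids, was 13.3 and 12.6 FPKM with PBS, 12.7 and 11.4 after 5 µM and 20.3 and 18.3 after 10 µM. It too was near PBS at 5 µM and higher at 10 µM, with log2 changes of -0.09 ± 0.08 at 5 µM and 0.54 ± 0.08 at 10 µM (limma adjusted p = 0.4 and 0.00259).

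Slc1a4, the carrier ASCT1 of alanine, serine and cysteine, was 5.93 and 6.10 FPKM with PBS, 6.23 and 5.65 after 5 µM and 7.18 and 6.86 after 10 µM. Its rise at 10 µM was small, at 0.19 ± 0.06 (limma adjusted p = 0.0463), and was lost under 10 of 15 alternatives. These were each removal of a PBS or 10 µM sample (adjusted p = 0.175, 0.119, 0.151 and 0.0794, with 0.0451 to 0.175 across all alternatives), median-of-ratios scaling (adjusted p = 0.119) and 5 others.

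**Figure D2:**
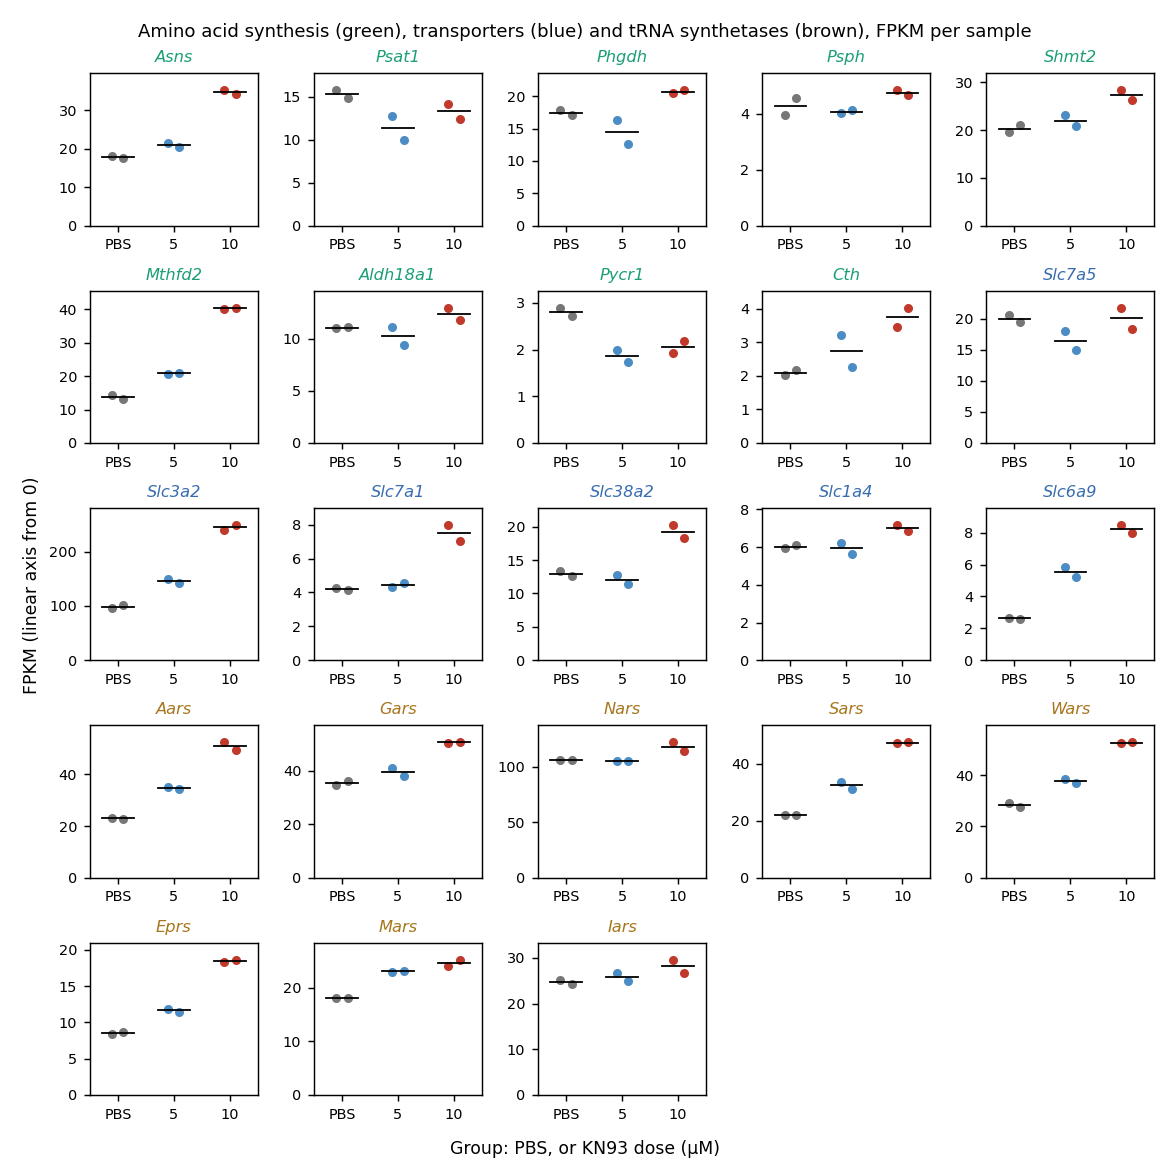
FPKM (y axes, linear and from 0) of the 9 synthesis enzymes, 6 transporters and 8 tRNA synthetases in each sample, by group (x axes: PBS, 5 and 10 µM KN93). Points are samples and horizontal lines the means of 2. Mthfd2, Slc3a2, Aars and Sars step up with dose, while Pycr1 stays below its PBS samples and Slc7a5 at 10 µM lies on either side of them.

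Of the 8 cytosolic tRNA synthetases, which charge tRNAs with their amino acids, 6 rose at 10 µM and 5 at 5 µM, beside 28.5% and 15.1% of all genes. Aars, for alanine, was 23.3 and 22.6 FPKM with PBS, 35.2 and 34.4 after 5 µM and 52.5 and 49.6 after 10 µM. Aars rose, with log2 changes of 0.58 ± 0.05 at 5 µM and 1.12 ± 0.05 at 10 µM (limma adjusted p = 0.00108 and 5.09e-05). Sars, for serine, was 21.8 and 21.9 FPKM with PBS, 33.6 and 31.2 after 5 µM and 47.3 and 47.6 after 10 µM. Sars rose, with log2 changes of 0.55 ± 0.05 at 5 µM and 1.08 ± 0.05 at 10 µM (limma adjusted p = 0.0014 and 5.93e-05). In both the groups stood apart, and from 5 to 10 µM they rose by a further 0.54 ± 0.05 and 0.54 ± 0.05 (limma adjusted p = 0.00256 and 0.00277).

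Eprs, which charges glutamate and proline and belongs to the multi-synthetase complex, was 8.47 and 8.74 FPKM with PBS, 11.9 and 11.4 after 5 µM and 18.3 and 18.7 after 10 µM. It rose, with log2 changes of 0.40 ± 0.05 at 5 µM and 1.02 ± 0.05 at 10 µM (limma adjusted p = 0.00328 and 5.96e-05). Wars, for tryptophan, a gene that interferon-γ also induces in macrophages, was 29.2 and 27.8 FPKM with PBS, 38.5 and 37.1 after 5 µM and 52.4 and 52.9 after 10 µM. Wars rose, with log2 changes of 0.39 ± 0.05 at 5 µM and 0.86 ± 0.05 at 10 µM (limma adjusted p = 0.00348 and 0.000102). Gars, for glycine, was 34.6 and 36.3 FPKM with PBS, 41.1 and 38.1 after 5 µM and 50.6 and 50.7 after 10 µM. Only its rise at 10 µM passed, with log2 changes of 0.15 ± 0.05 at 5 µM and 0.50 ± 0.05 at 10 µM (limma adjusted p = 0.0859 and 0.000967).

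Mars, for methionine, which overlaps the end of Ddit3, was 18.1 and 18.03 FPKM with PBS, 23.03 and 23.2 after 5 µM and 24.1 and 25.3 after 10 µM. It rose at each dose, with log2 changes of 0.34 ± 0.05 at 5 µM and 0.43 ± 0.05 at 10 µM (limma adjusted p = 0.00468 and 0.000894), and the difference between the doses of 0.09 ± 0.05 did not pass (limma adjusted p = 0.217). Iars, for isoleucine, was 25.2 and 24.3 FPKM with PBS, 26.6 and 24.9 after 5 µM and 29.6 and 26.6 after 10 µM, and its changes of 0.05 ± 0.07 and 0.17 ± 0.07 did not pass (limma adjusted p = 0.594 and 0.0791). Nars, for asparagine, the most abundant synthetase of the 8 per length, was 106 and 106 FPKM with PBS, 105 and 105 after 5 µM and 122 and 114 after 10 µM. Its 10 µM samples lay above the others, but the change of 0.15 ± 0.05 missed the threshold (limma adjusted p = 0.0509). Without 10 µM replicate 2 both were called at 10 µM, with adjusted p = 0.038 for Iars (0.038 to 0.27 across all alternatives) and adjusted p = 0.0311 for Nars (0.0311 to 0.208 across all alternatives). Nars was also called after quantile normalization (adjusted p = 0.0487).

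**Figure D3:**
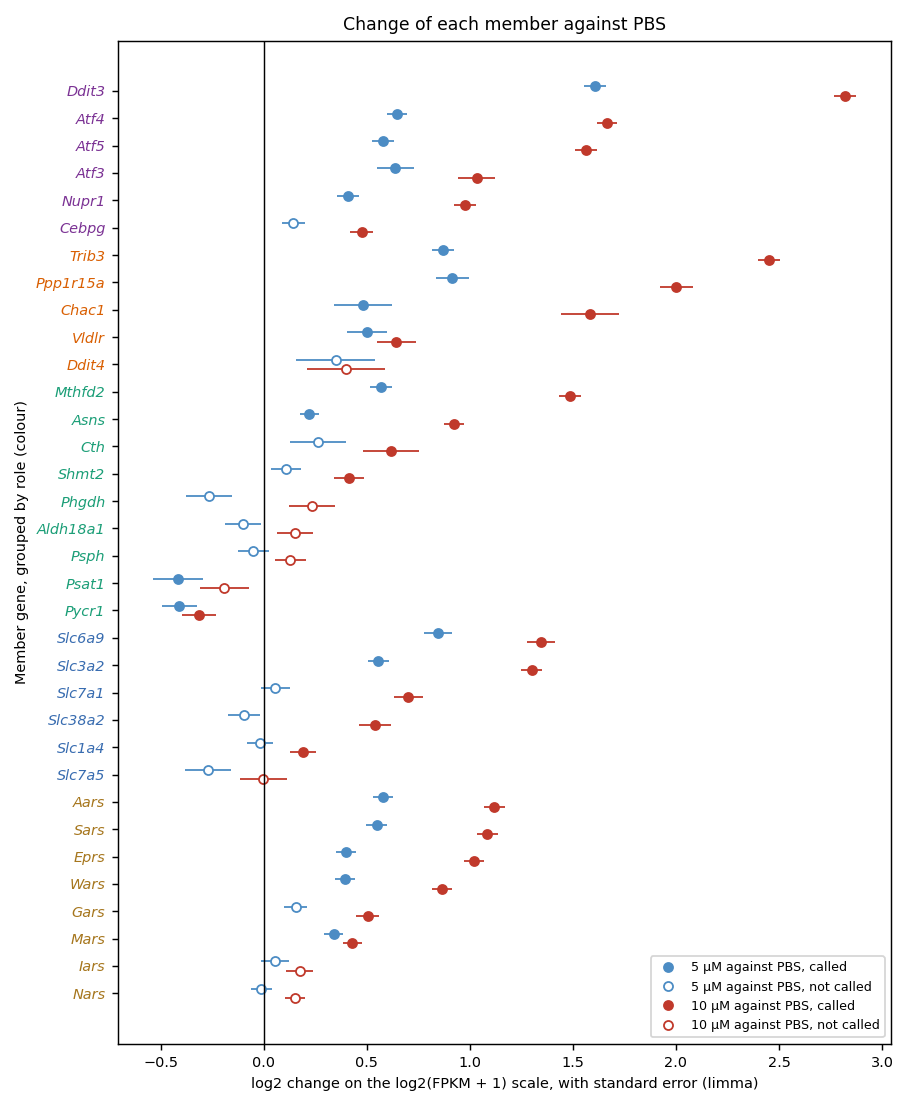
Change of each of the 34 members against PBS on the log2(FPKM + 1) scale (x axis), with the standard error from limma; genes (y axis) are grouped by role. Filled points passed an adjusted p under 0.05 and open points did not. The 10 µM change runs from -0.31 for Pycr1 to 2.82 for Ddit3.

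Counted over the 34 members, 18 rose and 2 fell at 5 µM, where 15.1% and 15.4% of all genes tested did. At 10 µM 25 rose and 1 fell, where 28.5% and 22.0% did. The median change was 0.34 at 5 µM and 0.67 at 10 µM, where the medians of all 12722 genes were 0.01 and 0.05. At least a doubling on the log2(FPKM + 1) scale, together with the call, was seen in 1 member at 5 µM, Ddit3, and in 13 at 10 µM, where 0.88% and 3.1% of all genes rose as much. Both comparisons use the same PBS samples. Both samples lay above both PBS samples in 23 members at 5 µM and in 31 at 10 µM, where they did so in 37.0% and 44.2% of all genes. Under the alternatives tried, 15 of the 20 calls at 5 µM and 23 of the 26 at 10 µM were made in each fit that tested the gene, and the 8 others are named above.

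From 5 to 10 µM, 22 members rose, where 11.4% of all genes were called higher, and 0 fell, where 8.5% of all genes did (limma; 0 also at an unadjusted p under 0.05, and 0 with voom). Both 10 µM samples lay above both 5 µM samples in 30 members and in 37.7% of all genes. All 34 changes were above 0, as were 7234 of the 12722 changes of all genes tested. The median was 0.48, against 0.04 for all genes tested. The largest were those of Trib3, at 1.58 ± 0.05, Ddit3, at 1.22 ± 0.05, and Chac1, at 1.10 ± 0.14 (limma adjusted p = 0.000336, 0.000501 and 0.00625). The rises of Atf4 and Atf5 were 1.02 ± 0.05 and 0.99 ± 0.05 (limma adjusted p = 0.000574 and 0.000848). Of the 22 calls, 17 were made under each alternative. Besides Phgdh, 4 were lost when single samples were removed. For Atf3 the main change was 0.40 ± 0.09 (limma adjusted p = 0.0324), and without 5 µM replicate 1 or 2 or 10 µM replicate 1 or 2 its adjusted p was 0.133, 0.103, 0.0676 and 0.123, and 0.104 with no expression filter (0.0087 to 0.133 across all alternatives). In the same order the adjusted p of Cebpg was 0.0765, 0.0681, 0.0554 and 0.0565 (0.00383 to 0.0765 across all alternatives). That of Shmt2, lost under 11 of 15 alternatives, was 0.0592, 0.164, 0.136 and 0.0739, and 0.0586 and 0.0587 without PBS replicate 1 or 2 (0.0156 to 0.164 across all alternatives). Gars was lost only without 5 µM replicate 2 (adjusted p = 0.0656, with 0.00321 to 0.0656 across all alternatives).

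Whether the second dose step was larger than the first was tested as the difference of the 2 steps, 10 µM minus 5 µM against 5 µM minus PBS. It was called as larger for 3 members, where 2.88% of all genes were, and as smaller for 0 members, where 2.48% were (limma; 3 members at an unadjusted p under 0.05, and 1 with voom). The larger steps were those of Trib3, at 0.71 ± 0.09, Slc38a2, at 0.73 ± 0.13, and Asns, at 0.48 ± 0.08 (limma adjusted p = 0.0261, 0.0433 and 0.0394). For Ddit3 the difference was -0.39 ± 0.09 and did not pass (limma adjusted p = 0.0698). For Atf4 it was 0.37 ± 0.08 and for Slc7a1 0.59 ± 0.12, which did not pass either (limma adjusted p = 0.0609 and 0.0561). The calls of Trib3, Slc38a2 and Asns were lost when any 1 of the 6 samples was removed, where fewer of all genes were called too. Over the alternatives the difference ran from 0.60 to 0.82 for Trib3, from 0.58 to 0.87 for Slc38a2 and from 0.42 to 0.54 for Asns. With voom on recovered fragments 8 members were called as larger and 1 as smaller in the second step. In that fit more of all genes were called as well, 782 of 12717 as larger and 508 as smaller.

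The replicates of the members differed little with PBS and more with KN93. The median absolute difference between the 2 replicates, on the log2(FPKM + 1) scale, was 0.05 in the PBS group, 0.09 in the 5 µM group and 0.07 in the 10 µM group, against 0.07, 0.08 and 0.10 over all genes tested. At 5 µM replicate 1 was the higher one in 25 of the 34 members, where it was higher in 51.4% of all genes, and in the other groups in 18 of 34 each. The widest gaps at 5 µM were in the same direction: Cth was 3.21 in replicate 1 and 2.26 in replicate 2, Phgdh 16.4 and 12.6, Psat1 12.7 and 9.91, and Chac1 7.95 and 5.71 FPKM.

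Upstream of ATF4 stand 4 kinases that phosphorylate eIF2. The message of 1 rose at both doses, 1 fell at 10 µM, 1 fell at 5 µM and 1 was called at neither dose. Of all genes tested 15.1% rose and 15.4% fell at 5 µM, and 28.5% rose and 22.0% fell at 10 µM. Eif2ak4, the amino acid sensor GCN2, was 4.52 and 4.92 FPKM with PBS, 6.93 and 7.03 after 5 µM and 6.98 and 7.40 after 10 µM. It rose, with log2 changes of 0.48 ± 0.06 at 5 µM and 0.52 ± 0.06 at 10 µM (limma adjusted p = 0.00381 and 0.00123). Eif2ak3, the ER stress sensor PERK, was 6.24 and 6.36 FPKM with PBS, 5.84 and 6.12 after 5 µM and 4.83 and 5.20 after 10 µM. It fell at 10 µM, with log2 changes of -0.07 ± 0.06 at 5 µM and -0.28 ± 0.06 at 10 µM (limma adjusted p = 0.441 and 0.0101), a call lost without PBS replicate 2 (adjusted p = 0.0568, with 0.00257 to 0.0568 across all alternatives). Eif2ak2, the sensor PKR of double-stranded RNA, was 30.4 and 28.996 FPKM with PBS, 23.3 and 23.2 after 5 µM and 29.5 and 28.4 after 10 µM. Its level was lower at 5 µM and near PBS at 10 µM, with log2 changes of -0.34 ± 0.05 at 5 µM and -0.03 ± 0.05 at 10 µM (limma adjusted p = 0.0051 and 0.581). Eif2ak1, the heme-regulated kinase HRI, was 15.6 and 15.4 FPKM with PBS, 15.1 and 14.3 after 5 µM and 15.2 and 14.5 after 10 µM, and its changes of -0.07 ± 0.05 and -0.06 ± 0.05 did not pass (limma adjusted p = 0.321 and 0.338). These are transcript levels, and the activity of the kinases was not measured.

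A list of 18 genes held the eIF2 kinases, eIF2, eIF2B and other genes of the pathway. Of these 9 rose and 2 fell at 10 µM (28.5% and 22.0% of all genes did), and 7 rose and 1 fell at 5 µM (15.1% and 15.4%). Among those that rose at both doses were Ppp1r15b, Impact, Oma1 and Dele1, which are neither eIF2 kinases nor subunits of eIF2 or eIF2B. Fewer of the 18 rose at 5 µM with any 1 of the PBS or 5 µM samples left out. Fewer fell at 10 µM without either PBS replicate. In these fits fewer of all genes were called too. The medians of the list were 0.22 and 0.17. Impact, an inhibitor of GCN2 activation, was 17.2 and 17.8 FPKM with PBS, 27.9 and 28.7 after 5 µM and 38.5 and 36.2 after 10 µM. Impact rose, with log2 changes of 0.66 ± 0.05 at 5 µM and 1.05 ± 0.05 at 10 µM (limma adjusted p = 0.000855 and 6.75e-05). Ppp1r15b, the constitutive partner of the eIF2 phosphatase, was 18.9 and 19.3 FPKM with PBS, 22.4 and 23.8 after 5 µM and 32.3 and 29.1 after 10 µM. It rose, with log2 changes of 0.26 ± 0.06 at 5 µM and 0.65 ± 0.06 at 10 µM (limma adjusted p = 0.0313 and 0.000688). The 5 µM call of Ppp1r15b was lost without any 1 of the PBS or 5 µM samples (adjusted p = 0.132, 0.101, 0.0734 and 0.144, with 0.0226 to 0.144 across all alternatives).

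Of 30 tested genes that were listed as other targets of ATF4 or CHOP, 21 rose and 4 fell at 10 µM (28.5% and 22.0% of all genes), and 13 rose and 6 fell at 5 µM (15.1% and 15.4%). Whether these factors induce each of the 30 in macrophages was not tested. Fewer of the 30 rose at 5 µM without PBS replicate 2 or 5 µM replicate 1. Fewer fell there without PBS replicate 2 or 5 µM replicate 2. In these fits fewer of all genes were called too. The medians of the list were 0.54 and 0.22. Gdf15, a stress-induced hormone that suppresses appetite, was 6.02 and 6.75 FPKM with PBS, 21.5 and 21.5 after 5 µM and 37.9 and 41.6 after 10 µM. It rose, with log2 changes of 1.61 ± 0.07 at 5 µM and 2.46 ± 0.07 at 10 µM (limma adjusted p = 0.000225 and 1.81e-05). Sqstm1, which encodes the autophagy receptor p62 and is also a target of NRF2, was 134 and 144 FPKM with PBS, 273 and 246 after 5 µM and 458 and 471 after 10 µM. Sqstm1 rose, with log2 changes of 0.90 ± 0.07 at 5 µM and 1.74 ± 0.07 at 10 µM (limma adjusted p = 0.000887 and 4.35e-05). Against this direction Trib1, a relative of Trib3, was 8.07 and 7.73 FPKM with PBS, 3.43 and 3.33 after 5 µM and 1.51 and 1.31 after 10 µM. Its level fell, with log2 changes of -1.02 ± 0.07 at 5 µM and -1.89 ± 0.07 at 10 µM (limma adjusted p = 0.00061 and 3.06e-05).

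Of 18 other tested genes of amino acid synthesis and one-carbon metabolism, 5 rose and 4 fell at 10 µM, shares near those of all genes tested (28.5% higher and 22.0% lower), with a median of -0.05. The number that rose was lower with any 1 of the PBS or 10 µM samples left out, as it was over all genes tested. Glul, glutamine synthetase, was 124 and 119 FPKM with PBS, 67.2 and 70.6 after 5 µM and 37.9 and 39.2 after 10 µM. It fell, with log2 changes of -0.81 ± 0.05 at 5 µM and -1.63 ± 0.05 at 10 µM (limma adjusted p = 0.000562 and 2.2e-05). Ass1, the enzyme that makes argininosuccinate for arginine synthesis, was 12.8 and 11.5 FPKM with PBS, 24.5 and 21.2 after 5 µM and 36.7 and 39.5 after 10 µM. Ass1 rose, with log2 changes of 0.86 ± 0.09 at 5 µM and 1.58 ± 0.09 at 10 µM (limma adjusted p = 0.00207 and 0.000107). Mtr, methionine synthase, was 11.4 and 11.7 FPKM with PBS, 6.80 and 7.23 after 5 µM and 4.64 and 4.41 after 10 µM. Mtr fell, with log2 changes of -0.65 ± 0.06 at 5 µM and -1.18 ± 0.06 at 10 µM (limma adjusted p = 0.00112 and 5.96e-05). Of 16 other tested transporters of amino acids and related solutes, 6 rose and 6 fell at 10 µM, against 28.5% and 22.0% of all genes, with a median of 0.09. Slc7a2, the cationic amino acid carrier CAT2, was 2.14 and 1.89 FPKM with PBS, 5.41 and 5.42 after 5 µM and 6.89 and 6.26 after 10 µM. Slc7a2 rose, with log2 changes of 1.09 ± 0.07 at 5 µM and 1.33 ± 0.07 at 10 µM (limma adjusted p = 0.00061 and 9.32e-05). Slc6a8, the creatine transporter, was 13.6 and 16.3 FPKM with PBS, 37.8 and 35.1 after 5 µM and 57.4 and 58.5 after 10 µM. Slc6a8 rose, with log2 changes of 1.24 ± 0.09 at 5 µM and 1.89 ± 0.09 at 10 µM (limma adjusted p = 0.000727 and 6.06e-05). Slc43a2, a carrier of large neutral amino acids like Slc7a5, was 79.7 and 82.5 FPKM with PBS, 67.8 and 71.5 after 5 µM and 46.6 and 46.99 after 10 µM. It fell, with log2 changes of -0.22 ± 0.05 at 5 µM and -0.78 ± 0.05 at 10 µM (limma adjusted p = 0.0219 and 0.000137), and its 5 µM call was lost without any 1 of the PBS or 5 µM samples (adjusted p = 0.0726, 0.11, 0.114 and 0.0539, with 0.00671 to 0.114 across all alternatives).

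Of the 12 other cytosolic synthetases 8 rose at 10 µM and 2 at 5 µM, beside 28.5% and 15.1% of all genes, with medians of 0.23 and 0.06. Cars, for cysteine, was 8.11 and 8.07 FPKM with PBS, 11.3 and 10.2 after 5 µM and 16.9 and 16.04 after 10 µM. Cars rose, with log2 changes of 0.37 ± 0.06 at 5 µM and 0.94 ± 0.06 at 10 µM (limma adjusted p = 0.00891 and 0.00016). Farsb, a subunit of the phenylalanine enzyme, was 17.2 and 16.1 FPKM with PBS, 25.8 and 23.8 after 5 µM and 25.2 and 25.9 after 10 µM. Farsb rose, with log2 changes of 0.55 ± 0.06 at 5 µM and 0.59 ± 0.06 at 10 µM (limma adjusted p = 0.00255 and 0.000787). Yars, for tyrosine, was 8.47 and 7.54 FPKM with PBS, 9.24 and 9.29 after 5 µM and 14.8 and 13.2 after 10 µM, and only its rise at 10 µM passed, with log2 changes of 0.19 ± 0.08 at 5 µM and 0.74 ± 0.08 at 10 µM (limma adjusted p = 0.113 and 0.000791). Of the 16 tested mitochondrial synthetases 5 rose at 10 µM (31.2% of them, where 28.5% of all genes did), with a median of 0.16. That count was lower without either PBS replicate, without 10 µM replicate 2 and without either 5 µM replicate. In these fits fewer of all genes were called higher too. The leading ones, Rars2, Tars2 and Aars2, changed by 0.27 ± 0.07, 0.23 ± 0.06 and 0.27 ± 0.07 at 10 µM (limma adjusted p = 0.026, 0.0223 and 0.018). Each of these calls was lost without PBS replicate 1, PBS replicate 2 or 10 µM replicate 2: the adjusted p of Rars2 was 0.11, 0.0794 and 0.103 (0.023 to 0.11 across all alternatives), that of Tars2 0.0611, 0.111 and 0.0874 (range 0.017 to 0.111), and that of Aars2 0.0925, 0.0599 and 0.0703 (range 0.0148 to 0.0925). After median-of-ratios scaling Rars2 and Tars2 were not called either (adjusted p = 0.0554 and 0.0596). At 5 µM the changes of Rars2 and Tars2 were 0.29 ± 0.07 and 0.32 ± 0.06 (limma adjusted p = 0.0301 and 0.0123). The Rars2 call was lost without any 1 of the PBS or 5 µM samples, when its change was 0.23 to 0.35. It was also lost with no expression filter and with a block for the replicate number (limma adjusted p = 0.0807 and 0.053). The Tars2 call was lost without PBS replicate 1 or 2 or 5 µM replicate 2, when its change was 0.35, 0.29 and 0.28.

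The other arms of the ER stress response, which act through ATF6 and XBP1 and raise ER chaperones, were followed in 20 genes. Of these 7 rose and 3 fell at 10 µM, where 28.5% of all genes rose and 22.0% fell, and 4 rose and 3 fell at 5 µM, where 15.1% and 15.4% did. These shares lie near the background, and the medians were 0.04 and -0.0043. Fewer of the 20 rose at 5 µM without either PBS replicate or without 5 µM replicate 1. Fewer fell there without PBS replicate 2 or 5 µM replicate 2. In these fits fewer of all genes were called too. Creld2, an ER stress-induced protein, was 29.7 and 28.5 FPKM with PBS, 37.99 and 36.7 after 5 µM and 38.6 and 39.7 after 10 µM. Creld2 rose, with log2 changes of 0.35 ± 0.05 at 5 µM and 0.41 ± 0.05 at 10 µM (limma adjusted p = 0.00478 and 0.00114). Hyou1, an ER chaperone, was 32.8 and 33.1 FPKM with PBS, 39.2 and 37.6 after 5 µM and 44.7 and 43.2 after 10 µM. Hyou1 rose, with log2 changes of 0.21 ± 0.05 at 5 µM and 0.41 ± 0.05 at 10 µM (limma adjusted p = 0.0196 and 0.0011). The 5 µM call of Hyou1 was lost without any 1 of the PBS or 5 µM samples (adjusted p = 0.098, 0.083, 0.107 and 0.0598, with 0.0166 to 0.107 across all alternatives). Dnajc3, a cochaperone that also inhibits PERK and PKR, was 21.6 and 22.1 FPKM with PBS, 17.8 and 17.3 after 5 µM and 16.8 and 15.9 after 10 µM. It fell, with log2 changes of -0.30 ± 0.05 at 5 µM and -0.40 ± 0.05 at 10 µM (limma adjusted p = 0.00799 and 0.00144), and at 5 µM the call was lost without PBS replicate 2 or 5 µM replicate 2 (adjusted p = 0.0501 and 0.0531, with 0.00166 to 0.0531 across all alternatives).

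In the mitochondrial unfolded protein response, whose chaperones and proteases fold and clear proteins of the matrix, 8 of 10 genes rose and 1 fell at 10 µM (28.5% and 22.0% of all genes), and 6 rose and 1 fell at 5 µM (15.1% and 15.4%). Without PBS replicate 1 fewer of the 10 rose at 10 µM. The 1 fall at 5 µM was lost without any 1 of the PBS or 5 µM samples. In these fits fewer of all genes were called too. The medians of the list were 0.33 and 0.22. Hspa9, the mitochondrial HSP70, was 61.8 and 61.1 FPKM with PBS, 93.9 and 90.6 after 5 µM and 139.8 and 136 after 10 µM. Hspa9 rose, with log2 changes of 0.58 ± 0.05 at 5 µM and 1.15 ± 0.05 at 10 µM (limma adjusted p = 0.00089 and 4.03e-05). Lonp1, a matrix protease, was 22.02 and 23.2 FPKM with PBS, 31.6 and 30.7 after 5 µM and 40.8 and 41.04 after 10 µM. Lonp1 rose, with log2 changes of 0.45 ± 0.05 at 5 µM and 0.83 ± 0.05 at 10 µM (limma adjusted p = 0.00218 and 0.000106). Hspe1, the partner of HSP60, was 36.1 and 35.1 FPKM with PBS, 46.8 and 44.5 after 5 µM and 52.6 and 54.97 after 10 µM. Hspe1 rose, with log2 changes of 0.35 ± 0.05 at 5 µM and 0.58 ± 0.05 at 10 µM (limma adjusted p = 0.00574 and 0.000421). Among 12 tested brakes of mTORC1 and sensors of amino acids, 5 rose and 4 fell at 10 µM, beside 28.5% and 22.0% of all genes. Sesn2, a leucine sensor that is counted among the ATF4 targets too, was 13.01 and 13.2 FPKM with PBS, 16.6 and 15.4 after 5 µM and 26.02 and 26.7 after 10 µM. Sesn2 rose, with log2 changes of 0.27 ± 0.05 at 5 µM and 0.96 ± 0.05 at 10 µM (limma adjusted p = 0.0163 and 0.000106). Its 5 µM call was lost without PBS replicate 1 or 2 or 5 µM replicate 1 (adjusted p = 0.0855, 0.0674 and 0.082, with 0.0111 to 0.0855 across all alternatives). Its relative Sesn1, a p53 and FOXO target, was 28.4 and 26.5 FPKM with PBS, 13.5 and 13.9 after 5 µM and 6.86 and 6.79 after 10 µM. Sesn1 fell, with log2 changes of -0.95 ± 0.05 at 5 µM and -1.86 ± 0.05 at 10 µM (limma adjusted p = 0.00038 and 1.81e-05). Castor2, of the family of arginine sensors, was 6.52 and 6.61 FPKM with PBS, 4.02 and 4.05 after 5 µM and 2.48 and 2.51 after 10 µM. Castor2 fell, with log2 changes of -0.59 ± 0.05 at 5 µM and -1.11 ± 0.05 at 10 µM (limma adjusted p = 0.00126 and 6.06e-05).

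**Figure D4:**
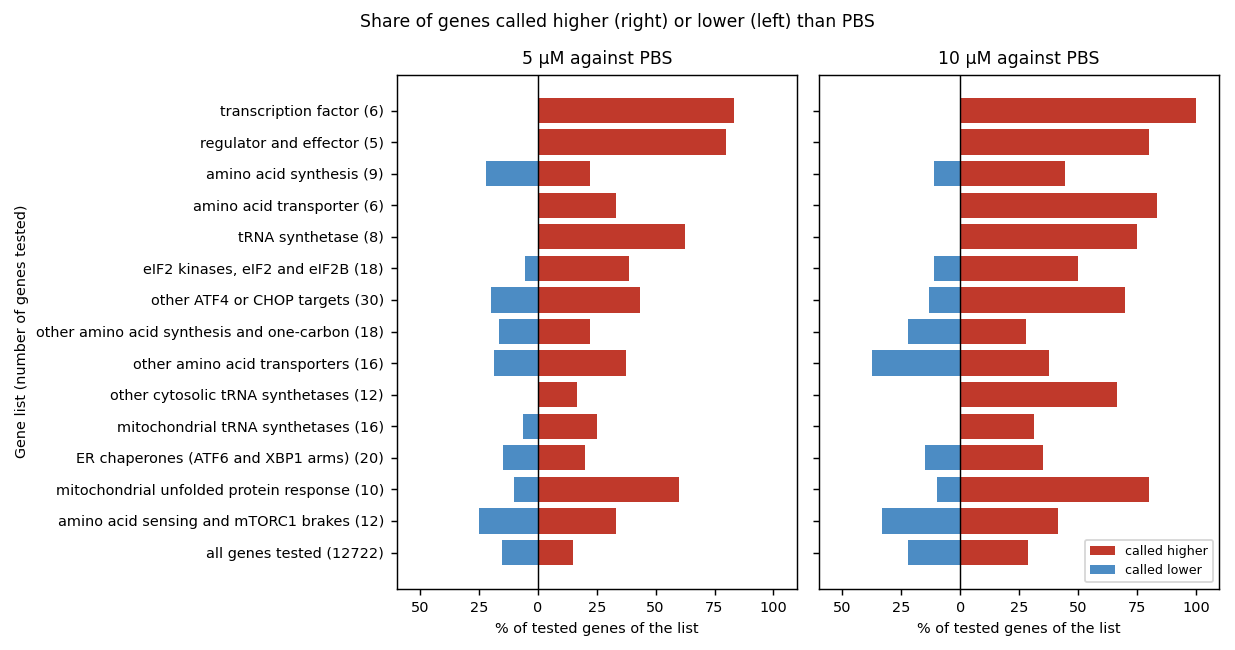
Share of the tested genes of each list (y axis, number tested in brackets) called higher (red, to the right) or lower (blue, to the left) than PBS, in % (x axes), at 5 µM and 10 µM KN93. The first 5 bars are the members by role and the last is all 12722 genes tested, of which 28.5% were called higher at 10 µM. The bar named for eIF2 kinases, eIF2 and eIF2B also holds other genes of the pathway, such as Impact and Ppp1r15b.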

How the data were processed

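RNA sequencing of 6 samples of mouse macrophages was used, 2 each with PBS, 5 µM and 10 µM KN93. The values are FPKM per gene, deposited by the authors as 1 table for all samples. Reads were aligned to GRCm38 with HISAT2, per the submitters' processing notes. Not given in the sources used here are the version, the counting tool, its annotation and any use of strand. Of the 54446 entries, 99.93% matched GENCODE M21.

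The 12722 genes that reached 1 FPKM in 2 or more samples were compared on log2(FPKM + 1) with limma 3.58.1 in R 4.3.3, with an intensity trend, all 6 samples in 1 fit and Benjamini-Hochberg adjustment over all tested genes. Calls were made at an adjusted p below 0.05. The members, lists and genes to name were chosen with earlier results of these data known. From each list of other pathway genes the 3 with the lowest p at 10 µM were named, and the 4 eIF2 kinases. FPKM values were whole multiples of what 1 fragment is worth: 98.8 to 99.0% of values of up to 20 fragments came out whole within 0.1 when multiplied by the exon length, which gave the depth and the fragments for a voom fit, an alternative chosen after seeing the data. The other alternatives were a pseudocount of 0.1, no filter, a filter of 5 FPKM, median-of-ratios scaling, quantile normalization, no intensity trend, a block for the replicate number, a fit of only the 2 groups compared, and each sample left out in turn. Promoter sequences are those of RefSeq on GRCm38.p6.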

Additional observations from a re-analysis of the deposited data

How the results depend on the processing

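The number of members called was 15 to 21 for 5 µM, 23 to 27 for 10 µM and 17 to 22 between the doses over the alternatives, against 20, 26 and 22; the few calls of a fall and those of the dose steps did not. The members called lower at 5 µM, 2 in the report, were 0 with no filter and 1 with the filter of 5 FPKM, with no intensity trend and with only the 2 groups compared, and 0 to 3 with 1 sample left out. The 1 member called lower at 10 µM became 0 with no filter and with the filter of 5 FPKM, and 0 to 1 with 1 sample left out. That gene, Pycr1, stays under 5 FPKM, so the stricter filter left it untested at both doses and lost no call of it. The 3 called for the difference of the dose steps, all higher, became 0 with no filter, 5 with the filter of 5 FPKM and 1 with no intensity trend, all higher, 9 with voom (8 higher and 1 lower), and 0 with any 1 sample left out; a fit of 2 groups cannot give this difference. Changes of sign were seen among uncalled results only. After quantile normalization the 5 µM change of Slc1a4 was 0.0052 and that of Nars 0.015, and with voom the difference of the dose steps of Sars was 0.022. With 1 sample left out the 5 µM change ranged from -0.077 to 0.042 in Slc1a4, from -0.21 to 0.0057 in Aldh18a1 and from -0.14 to 0.036 in Psph, the 10 µM change of Slc7a5 from -0.12 to 0.12, and the change of Ddit4 between the doses from -0.24 to 0.34. The difference of the dose steps then ranged from -0.022 to 0.16 in Iars, from -0.11 to 0.091 in Sars, from -0.28 to 0.46 in Cth and from -0.037 to 0.38 in Ppp1r15a. Of 1057 recomputed values of called member results, 960 kept direction and call and 97 kept direction only; of 933 of uncalled ones, 19 gained a call and 15 changed sign. The cause was not tested. Over all 12722 genes, 1919 rose and 1962 fell at 5 µM, and 873 to 1894 and 1024 to 1962 with 1 sample left out. With no filter (30856 genes) 1282 rose at 5 µM, and between the doses 734 rose and 616 fell, against 1455 and 1081, and with 1 sample left out 431 to 1058 and 438 to 865. The difference of the dose steps was called as larger for 366 genes and as smaller for 316, but for 11 and 34 with no filter (24.44% larger, against 53.67%), 275 and 210 with no intensity trend, 190 and 164 with the replicate block, 782 and 508 with voom, and 0 to 134 and 0 to 105 with 1 sample left out. Of the counts of other pathway genes, 154 of 810 moved by over 1.5 times. At 10 µM the 5 mitochondrial synthetases called higher were 2 with no filter, 3 with the filter of 5 FPKM or only the 2 groups and 1 with median-of-ratios scaling; the 5 other synthesis genes were 3, with no filter or voom, and 2 with median-of-ratios scaling; the 4 mTORC1 brakes and the 1 mitochondrial stress gene called lower were 2 and 0 with the filter of 5 FPKM, which left the others untested. At 5 µM the 7 genes of the eIF2 list called higher were 4 and the 6 of the list of other ATF4 or CHOP targets called lower 3 with no filter. Median-of-ratios scaling moved the share of higher among the calls between the doses from 57.37% to 45.44%. At 10 µM against PBS it moved that share from 56.5% to 47.86%. There 3631 genes rose and 2796 fell in the main fit, and 2955 rose and 3219 fell after this scaling. The replicate numbers do not pair the samples by the labels, and the deviations of same-numbered samples had correlations of -0.055, 0.014 and 0.037. With the replicate number as a block 21, 26, 21 and 2 members were called in the 4 comparisons. Of all 12722 genes that fit called 1644 higher and 1765 lower at 5 µM, and 3361 and 2662 at 10 µM. Between the doses these were 1125 and 954, and for the dose steps 190 and 164. Among the members, the block ended the calls of Slc1a4 at 10 µM (adjusted p = 0.0642), Shmt2 between the doses (adjusted p = 0.0586) and Asns for the dose steps (adjusted p = 0.0561), added those of Slc7a5 at 5 µM (adjusted p = 0.0408) and Iars at 10 µM (adjusted p = 0.0477), and changed no other call of a member.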
